A study of Rattus norvegicus with 241 samples.

Results

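The samples described here are the luminal mammary epithelial cells of young ACI rats taken 7 days after the last dose of a TGFβ receptor inhibitor. They were chosen by their labels, as the bulk samples of the experiment on normal ACI rats with cell type luminal and day D7, which gives 3 treated and 3 control rats, or 6 of the 241 samples of the series. The inhibitor, called TGFBRi, is LY2157299, an oral small molecule against the kinase of the TGFβ type I receptor. The rats were virgin females dosed by gavage with 75 mg/kg of TGFBRi or with vehicle, 2 doses a day for 10 days from about 35 days of age. Luminal cells were sorted as CD24+CD29low cells after removal of CD31+ and CD45+ cells, and under 10 ng of RNA per sample went into each library, with 1 rat per library. The series holds the same comparison at day 0 and day 14 after the last dose, each with other rats, and in the basal (CD24+CD29high) cells of the same rats. Values below are always given in the same order, vehicle rats LD2L, LD5R and LD2LR, then TGFBRi-treated rats LD6R, LD9L and LD9R.

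TGFβ is a secreted growth factor that signals through a pair of receptor kinases and SMAD transcription factors, and in the mammary gland it restrains duct growth and epithelial proliferation. Luminal cells line the ducts and are of a hormone-sensing kind, which carries estrogen and progesterone receptors, and of a progenitor or alveolar kind, which is the source of milk proteins. The gland of a young virgin rat is growing, so that many luminal cells are in the cell cycle and estrous cycles begin to switch genes of milk production on and off.

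The label of 1 rat is open to doubt. The titles and treatment fields of LD2LR call it a control, as does the description of its CD45+ sample, but the descriptions of its luminal and basal samples call the animal treated. It was taken as vehicle. Many results are also given without it, but results with it as treated are given only for the number of genes called, some list medians and TGFBR1. The sorted cells carried the keratins of their label. KRT8 was at 64490 to 174300 in the luminal samples of day 7 and at 19540 to 35540 in basal samples of the same rats, and KRT18 at 27780 to 124000 against 969 to 2845. The basal markers KRT5 (22 to 148 against 14240 to 29450) and ACTA2 (3.79 to 23.8 against 1248 to 5842) were low in every luminal sample. These values are reads divided by a size factor per sample, called normalized values here, and they compare samples within a gene, not genes with each other.

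Totals of recovered reads in the 6 libraries ran from 14271662 to 19627532, with 12079 to 14969 genes above 0. The libraries of LD2LR and LD6R stood apart from the rest. Ribosomal protein genes took 8.52% of the reads of LD2LR and 5.94% of those of LD6R, against 2.89 to 2.99% in the other vehicle rats and 2.39 to 2.40% in the other TGFBRi-treated rats. Across days, 1 more luminal library, the TGFBRi-treated rat LD20L of day 14, reached 8.65%, and the other 15 lay between 1.39 and 3.74%. At day 7 each group held 1 such library. The basal libraries of LD2LR (6.21%) and LD6R (4.59%) were high too, against 1.48 to 2.92% in the other basal libraries of day 7. At day 14 the basal library of LD20L was at 7.26%. That of the vehicle rat LD11L was at 8.99%, against 2.27% in its luminal library. Whether this split belongs to the rats or to the libraries was not tested. The targeted receptor moved with this split. TGFBR1 measured 841, 762 and 68.2 in vehicle rats and 136, 1527 and 1537 in TGFBRi-treated rats, so that the lowest rat of each group was the one rich in ribosomal protein reads and the groups overlapped. The inhibitor blocks the kinase and not the gene, so that the level of TGFBR1 does not check the labels.

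**Figure D1:**
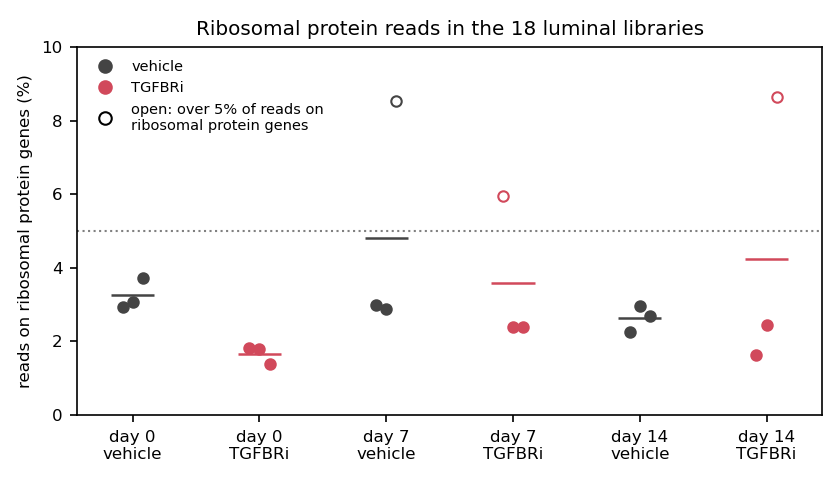
The share of reads on ribosomal protein genes (y axis, %) in the 18 luminal libraries by day and group, with 1 point per rat and a bar at the group mean. The vehicle rat LD2LR (8.52%) and the TGFBRi-treated rats LD6R (5.94%) and LD20L (8.65%) are the 3 open points above the dotted line at 5%, and the other 15 points lie at 1.39 to 3.74%.

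Over all 15181 genes tested, limma called 0 genes between TGFBRi and vehicle at day 7 at an adjusted p of 0.05 or less, while 1172 genes (7.72%) had an unadjusted p below 0.05, 656 of them higher (4.32%) and 516 lower (3.4%). That fit takes its spread from the luminal libraries of all 3 days. With day 7 rats only, limma called 0 genes as well, and 542 of 15147 had an unadjusted p below 0.05. edgeR on the recovered reads also called 0 genes, with 1198 below an unadjusted p of 0.05, and DESeq2 called 250 of the 10851 genes it gave an adjusted p (2.3%), 99 higher (0.912%) and 151 lower (1.39%) after treatment. With a term in the limma model for the 3 libraries rich in ribosomal protein reads, an alternative chosen after seeing the data, 1623 genes were called (10.7%), 598 higher (3.94%) and 1025 lower (6.75%). The fold changes of both limma fits are the same at day 7, since each group holds 1 such library, and the term lowers the spread between rats. Of the 250 genes called by DESeq2, 242 were among these 1623, in the same direction. Both fits use the same libraries, so that this overlap is no independent support. The number called with the library term was 650 without LD2LR (4.28%, with 317 higher, 2.09%, and 333 lower, 2.19%), 642 without LD6R, 623 without LD2L and 980 without LD9L, and 6 with LD2LR as treated (0.0395%), of which 0 were lower. DESeq2 with the term called 2385 of 10760 genes (22.2%), 784 higher (7.29%) and 1601 lower (14.9%). The share of higher genes among the calls was 36.8% with the library term, 26% with the term in edgeR, which called 457 genes higher (3.01%) and 1302 lower (8.58%), 27.6% with the term and TMM scaling (471 higher, 3.1%, and 1237 lower, 8.15%), 48.8% without LD2LR and 56.1% without the 3 rich libraries, a fit that called 456 genes. By values alone, 693 genes (4.56%) had all 3 treated rats above all 3 vehicle rats and 659 (4.34%) had them below. These shares serve as a background for the lists and were not tested against chance. In what follows, a gene is named as called by DESeq2 or with the library term where it was, and none was called by limma without the term. These calls take LD2LR as vehicle. With LD2LR as treated the term called 0 genes lower, so that no gene named below as lower with the term keeps that call under the other label. The median log2 fold change over all genes tested was 0.09. The gene lists below and their members were chosen with earlier results of these data known. Counts of list members beside the share of all genes thus describe the lists and are no test of them.

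The genes named first come from the 12 with the largest log2 fold change in each direction among 561 genes that had at least 50 reads on average, an unadjusted p below 0.05 and groups that did not overlap, so that the lack of overlap is part of the choice. KCNH1, a voltage-gated potassium channel, measured 50.7, 81.6 and 19 in vehicle rats and 274, 1209 and 966 after TGFBRi. Its log2 fold change was 3.96 with a standard error of 0.84 (limma adjusted p = 0.166), and it was called by DESeq2 (adjusted p = 0.000231), with the library term (adjusted p = 0.000304) and with the term and without LD2LR (adjusted p = 0.00142). LEFTY1, a secreted antagonist of Nodal and a member of the TGFβ superfamily itself, measured 103.8, 184 and 225 against 2509, 1457 and 1026. It was 9.50-fold higher by the fit and was called by DESeq2 (adjusted p = 0.000215) and with the library term (adjusted p = 0.00919). PTHLH, the parathyroid hormone-related protein of the mammary epithelium, measured 9.85, 9.89 and 30.1 against 220, 102.9 and 122.6. It was called by both as well (DESeq2 adjusted p = 0.000977, library term 0.00443), although the reads behind the vehicle values were few.

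Among the other higher genes, SFRP4, a secreted inhibitor of Wnt ligands, measured 15.9, 85.7 and 68.2 against 377, 314 and 399, with the treated rats close together. LRRC26, an auxiliary subunit of a potassium channel of secretory epithelium, measured 8.33, 23.1 and 73 against 478, 149 and 160. Both were called by DESeq2 and with the library term. ABCC8, the sulfonylurea receptor, and the adhesion gene THSD7A were called by both, at log2 fold changes of 3.76 and 3.11. TLL1, a tolloid-like protease that processes collagens, was called by DESeq2 (adjusted p = 0.0114) but not with the library term (adjusted p = 0.0925). SLC23A1, a vitamin C transporter, was called with the term but not by DESeq2 nor without LD2LR, and the galactosidase-like gene GLB1L2 was called by both. In LD2LR the value of GLB1L2, 1.59, stood for 1 read.

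**Figure D2:**
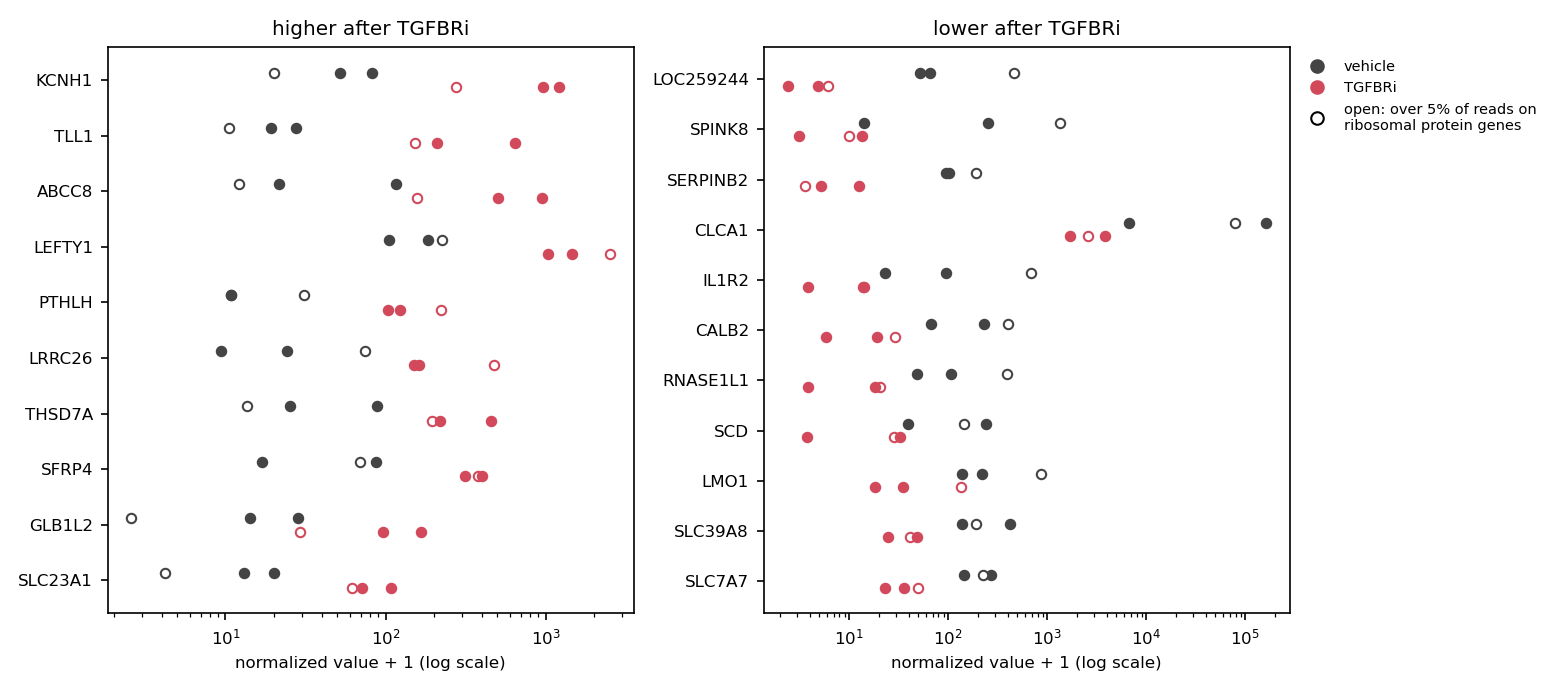
The 10 higher and 11 lower genes named in the text in the 6 luminal day 7 libraries, with the normalized value plus 1 on a log scale along the x axis and 1 point per rat. In each gene the 3 vehicle points and the 3 TGFBRi points do not overlap, by the rule that chose them, and the open points of LD2LR and LD6R lie with their own groups.

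Among the lower genes, CLCA1, a secreted protein that regulates chloride channels of mucous epithelia, measured 161200, 6669 and 78600 against 2557, 3811 and 1683 (DESeq2 adjusted p = 1.16e-05, library term 0.0363). The vehicle rat LD5R was thus the one nearest to the treated rats. SERPINB2, an inhibitor of plasminogen activators, measured 100.7, 94.8 and 189 against 2.58, 11.5 and 4.18. IL1R2, the decoy receptor for interleukin 1, measured 93.9, 22.2 and 681 against 12.9, 2.88 and 13.2. These genes were called by DESeq2 and with the library term, and none of CLCA1, SERPINB2 and IL1R2 was called with the term once LD2LR was left out (adjusted p of 0.172, 0.0599 and 0.0689).

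SLC39A8, a zinc and manganese importer, measured 421, 138 and 189 against 40.0, 47.1 and 23.7. SLC7A7, a transporter of basic amino acids, measured 144, 272 and 225 against 49, 34.6 and 22.3. Both were called by DESeq2 and with the library term, also without LD2LR (adjusted p of 0.0382 and 0.0288). The transcription regulator LMO1, the calcium-binding protein CALB2 and the protease inhibitor SPINK8 were called by both as well, at log2 fold changes of -2.76, -3.63 and -4.49, and without LD2LR the term called LMO1 but not the other two. SCD, a stearoyl-CoA desaturase, and the ribonuclease gene RNASE1L1 were called with the term (adjusted p of 0.045 and 0.0405) but not by DESeq2, nor with the term without LD2LR. LOC259244, which measured 64.4, 51.1 and 458 against 5.16, 3.85 and 1.39, is a gene of the major urinary protein family, whose near-identical copies share reads, so that its value is uncertain, and the same holds for RNASE1L1 and its paralogs.

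Cell cycle genes were lower in the luminal cells of TGFBRi-treated rats. Of 53 S phase genes tested, 52 had a log2 fold change below 0, with a median of -1.03, and of 62 G2/M phase genes 62 were below 0, with a median of -1.10. The groups did not overlap in 20 of the S phase and 28 of the G2/M genes, lower after treatment, against 4.34% of all genes, and in 0 genes of either list in the other direction. DESeq2 called 11 S phase and 2 G2/M genes lower, against 1.39% of all genes, and the library term 25 and 15, against 6.75%. Without LD2LR the term called 14 and 7, against 2.19%, and with LD2LR as treated it called 0 genes lower in all. With LD2LR as treated the S phase median was -0.61 without the term and -1.12 with it, and the G2/M median -0.88 and -1.36. The mean log2 level of the S phase genes was 9.52, 8.82 and 9.38 in vehicle rats and 8.50, 8.17 and 8.01 in treated rats. That of the G2/M genes was 9.40, 8.85 and 9.20 against 8.41, 7.81 and 7.98. In both lists the groups did not overlap, and the treated rat nearest to the vehicle rats was LD6R. Between the libraries rich in ribosomal protein reads the median difference was -0.89 for S phase and -0.86 for G2/M genes, and without those libraries it was -1.11 and -1.36. In bulk samples fewer cells in cycle and less of these RNAs per cell cannot be told apart.

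The licensing of replication was represented by the MCM helicase subunits. MCM6 measured 4362, 2469 and 2088 in vehicle rats and 887, 1186 and 978 after TGFBRi, a log2 fold change of -1.48 with a standard error of 0.39 (DESeq2 adjusted p = 0.0123, library term 0.00614). MCM3 (log2 fold change -1.64) and MCM7 (-1.03) were called by both too, and MCM5, at 2100, 1104 and 670 against 370, 500 and 533, did not overlap but was called by neither. CHAF1B, a subunit of the chromatin assembly factor that follows the replication fork, measured 657, 325 and 681 against 186, 150 and 119. POLD1, the catalytic subunit of DNA polymerase delta, measured 1164, 535 and 333 against 122.6, 248 and 162. E2F1, the transcription factor at the start of S phase, measured 570, 417 and 405 against 181, 152 and 172, and the ribonucleotide reductase subunit RRM1 3388, 2206 and 1463 against 679, 839 and 1137. In these 4 genes each treated rat was below each vehicle rat, and each gene was called by DESeq2 and with the library term. PCNA, the clamp of the replicative polymerases, did not separate the groups, at 4708, 5669 and 18760 against 11190, 3717 and 4022, where the highest rat of each group was the one rich in ribosomal protein reads. SLBP, the histone mRNA binding protein, was the 1 S phase gene above 0 (log2 fold change 0.36).

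In the G2/M list, CDC20, the activator of the anaphase promoting complex, measured 1321, 797 and 1444 against 640, 281 and 382 (log2 fold change -1.49, standard error 0.44, DESeq2 adjusted p = 0.0393, library term 0.00952). AURKA, a mitotic spindle kinase, measured 482, 379 and 554 against 289, 188 and 235, and was called by both. CDCA8, a subunit of the chromosomal passenger complex, measured 1384, 829 and 1931 against 729, 357 and 373 and was called with the library term. MKI67, the proliferation marker, measured 1104, 510 and 468 against 217, 250 and 336, and TOP2A, the topoisomerase of dividing cells, 1489, 699 and 647 against 363, 253 and 355. Both did not overlap between the groups but passed no adjusted threshold (library term adjusted p of 0.155 and 0.192). Of 19 cyclin-dependent kinase inhibitors and regulators of G1, 2 were called higher with the library term, RB1 and MYC (against 3.94% of all genes), and 1 lower, CDK4, a share of 5.26% near that of all genes (6.75%). Neither RB1 nor MYC was called without LD2LR. CDK4 measured 5519, 3802 and 10950 against 5273, 2322 and 2284. The inhibitor CDKN1A had a log2 fold change of 0.23 and passed no test.

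**Figure D3:**
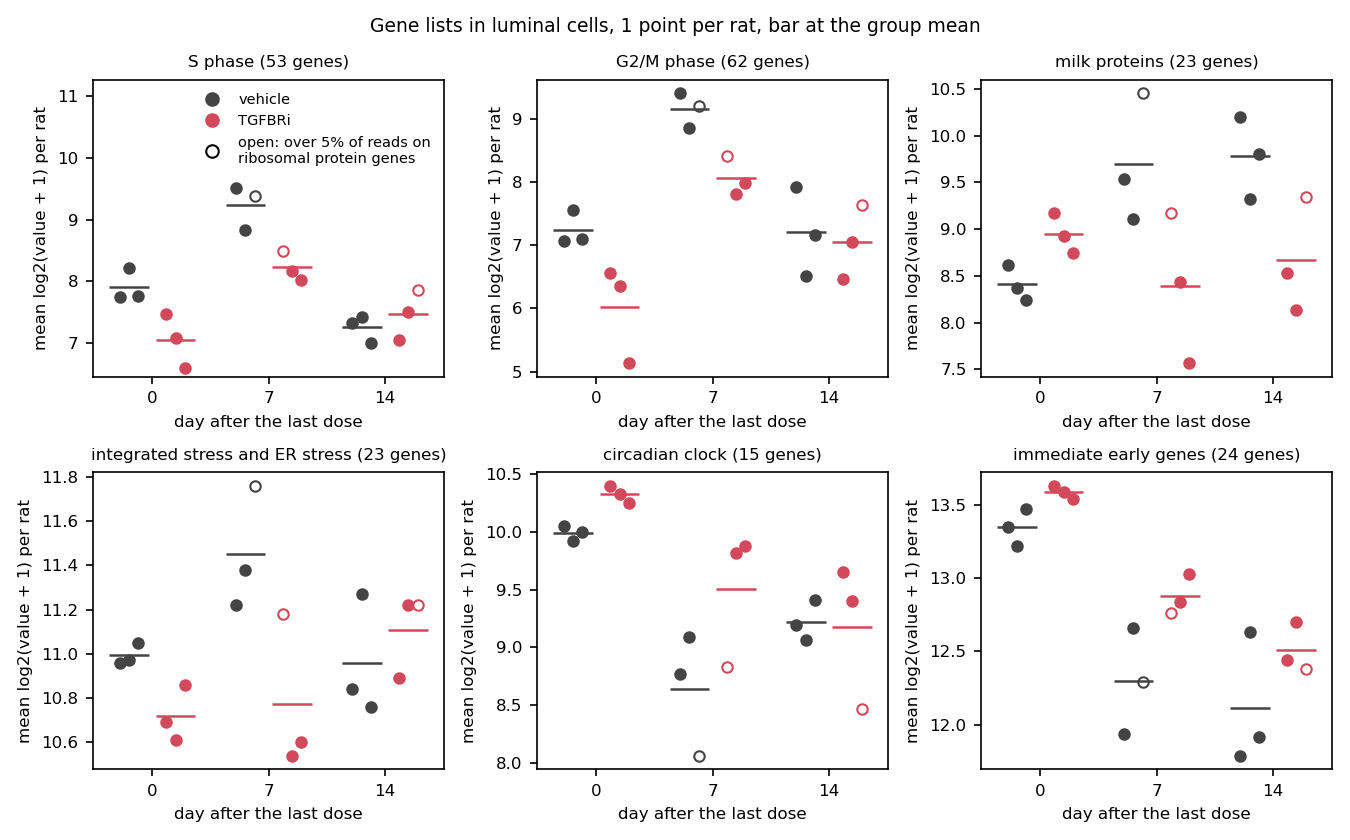
Mean log2 of the normalized value plus 1 over 6 gene lists (y axis) by day after the last dose (x axis) in luminal cells, with 1 point per rat and a bar at the group mean. At day 7 the TGFBRi points lie below the vehicle points for the S phase, G2/M and stress lists and above them for the immediate early genes, while 1 rat of each group comes close to or crosses the other group for the milk protein and circadian lists.

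Promoters of a few members are shown, since genes of these lists are known to share short promoter sequences. E2F factors act on S phase genes through sites such as TTTCCCGC and TTTGGCGC, and G2/M genes carry a CHR element, TTTGAA, beside CCAAT boxes. In the 250 bases before the start of the gene (RefSeq, build GRCr8), 40 of the 53 S phase and 54 of the 62 G2/M genes had an entry. On either strand, 11 of the 40 S phase promoters held at least 1 of the pair of E2F sequences (27.5%), against 1.26% of 27457 promoters. TTTGAA was in 28 of the 54 G2/M promoters (51.9%), against 16% of all, and CCAAT in 40 (74.1%), against 34.3%. The promoters shown are those of the 2 genes per list with the lowest log2 fold change among those that hold these sequences, had an unadjusted p below 0.05 and did not overlap between groups. A match is a description of the letters and not a site in use. They are MCM6 (chr13:42404353-42404602, minus strand), MCM5 (chr19:13488563-13488812, plus strand), CDCA8 (chr5:142483200-142483449, minus strand) and CDC20 (chr5:137255800-137256049, minus strand). Capitals mark the E2F sequences in MCM6 and MCM5 and the CHR and CCAAT sequences in CDCA8 and CDC20, in either orientation, and in CDCA8 the CHR sequence overlaps an inverted CCAAT box.
MCM6: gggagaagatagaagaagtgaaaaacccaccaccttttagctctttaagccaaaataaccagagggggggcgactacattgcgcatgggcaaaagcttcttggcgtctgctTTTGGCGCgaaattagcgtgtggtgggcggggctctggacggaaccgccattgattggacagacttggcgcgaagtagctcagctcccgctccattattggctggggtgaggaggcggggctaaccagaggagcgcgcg
MCM5: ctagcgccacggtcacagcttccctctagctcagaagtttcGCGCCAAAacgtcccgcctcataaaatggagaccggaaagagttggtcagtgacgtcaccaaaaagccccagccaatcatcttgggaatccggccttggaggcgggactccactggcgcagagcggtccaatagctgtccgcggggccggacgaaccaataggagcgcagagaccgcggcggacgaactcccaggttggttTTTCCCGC
CDCA8: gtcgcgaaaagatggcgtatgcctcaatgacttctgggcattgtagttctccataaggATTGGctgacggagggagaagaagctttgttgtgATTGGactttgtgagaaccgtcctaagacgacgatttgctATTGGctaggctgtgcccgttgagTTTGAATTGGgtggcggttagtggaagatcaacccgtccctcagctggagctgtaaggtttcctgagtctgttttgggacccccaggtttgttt
CDC20: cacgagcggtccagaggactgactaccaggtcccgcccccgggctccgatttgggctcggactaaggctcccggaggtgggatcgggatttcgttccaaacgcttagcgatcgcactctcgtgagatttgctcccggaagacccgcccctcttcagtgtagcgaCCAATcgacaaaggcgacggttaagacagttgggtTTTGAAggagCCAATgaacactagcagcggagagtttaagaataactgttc

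Genes of milk production were lower in several members after TGFBRi, with wide differences between rats of a group. Of 23 milk protein genes tested, 20 had a log2 fold change below 0, with a median of -0.87, and 0 were called higher. The groups did not overlap in 3 of them, MUC1, LPO and PIP, all lower, against 4.34% of all genes. DESeq2 called 4 lower, against 1.39% of all genes, and the library term 5, against 6.75%, or 2 without LD2LR, against 2.19%. GLYCAM1, a mucin-like whey protein, measured 14090, 18.1 and 141700 in vehicle rats and 31, 58.6 and 2.79 after TGFBRi. The vehicle rat LD5R was thus within the range of the treated rats, and the gene was called by DESeq2 (adjusted p = 9.66e-09) but not with the library term (adjusted p = 0.0576). CSN2, beta casein, measured 26000, 1965 and 120600 against 4330, 858 and 196, and CSN1S2A 3984, 432 and 26120 against 1966, 210 and 30.0. The groups overlapped in each of these caseins, and the highest rat of each group was rich in ribosomal protein reads. CSN1S1, alpha casein, measured 96650, 108400 and 404700 against 170900, 45210 and 36930 (library term adjusted p = 0.00473), while CSN3 and LALBA had log2 fold changes of -0.33 and -0.38 and passed no test. MUC1, the mucin of the apical luminal membrane, measured 1704, 1017 and 1782 against 359, 704 and 509. Its log2 fold change was -1.53 with a standard error of 0.37 (DESeq2 adjusted p = 0.00513, library term 0.0032).

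**Figure D4:**
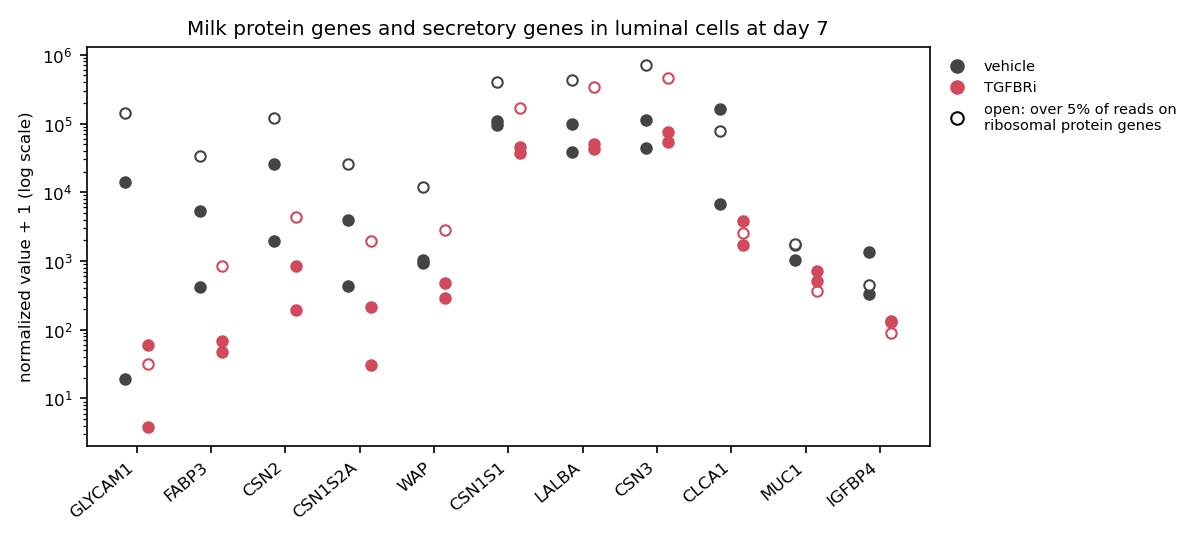
Normalized value plus 1 (log scale, y axis) of 8 genes of milk proteins and milk fat and of 3 other secretory or membrane genes in the 6 luminal day 7 libraries, with 1 point per rat. GLYCAM1 spans several orders of magnitude among vehicle rats, with LD5R at 18.1, and CSN2 a narrower range, with LD5R at 1965. The vehicle and TGFBRi points of MUC1, IGFBP4 and CLCA1 do not overlap.

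The promoters of GLYCAM1 (chr7:136561300-136561549, minus strand) and CSN2 (chr14:20601574-20601823, plus strand), from RefSeq in build GRCr8, are shown because these 2 milk genes had an unadjusted p below 0.05 and hold the STAT5 sequence TTCNNNGAA, through which prolactin acts on milk genes. It occurred, on either strand, in the 250 bases before the start of 6 of 22 milk protein genes (27.3%) and of 7.52% of all promoters. Capitals mark it.
GLYCAM1: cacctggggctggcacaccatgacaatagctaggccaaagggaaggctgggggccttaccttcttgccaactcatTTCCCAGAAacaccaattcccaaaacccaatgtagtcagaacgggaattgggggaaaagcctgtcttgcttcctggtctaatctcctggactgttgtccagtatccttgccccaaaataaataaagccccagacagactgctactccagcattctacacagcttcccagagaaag
CSN2: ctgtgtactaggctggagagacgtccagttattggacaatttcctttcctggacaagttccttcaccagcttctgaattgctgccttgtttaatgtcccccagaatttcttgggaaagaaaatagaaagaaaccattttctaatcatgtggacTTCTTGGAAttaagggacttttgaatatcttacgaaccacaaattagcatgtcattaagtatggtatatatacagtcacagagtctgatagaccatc

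Milk fat genes did not move together. Of 33 tested, 14 were above and 19 below 0 (median -0.13), with 8 called lower (against 6.75% of all genes) and 0 higher with the library term, and 3 lower without LD2LR (against 2.19%). The fatty acid binding protein FABP3 measured 5317, 423 and 33560 against 844, 68.2 and 46.7, with overlapping groups (library term adjusted p = 0.00328, and 0.0224 without LD2LR). SLC27A3, an acyl-CoA synthetase, measured 1358, 340 and 1028 against 112, 246 and 162, without overlap, and was called by DESeq2 as well as FABP3. OLAH, the thioesterase that ends the medium chains of milk fat, measured 56960, 76020 and 142300 against 75590, 30890 and 20340 and was called with the term (adjusted p = 0.00409). FASN, the fatty acid synthase itself, was not separated, at 7544, 1842 and 1160 against 1062, 14810 and 8771. Among other secreted products, IGFBP4, which binds insulin-like growth factors, was 5.07-fold lower, at 1347, 334 and 449 against 89.1, 135 and 127, and was called by DESeq2 (adjusted p = 0.000102) and with the library term (adjusted p = 0.00235). Of 14 genes of the insulin-like growth factor axis it was the 1 called lower with the term (7.14%, near the 6.75% of all genes), and IRS2 was called higher. PLAT, the tissue plasminogen activator, measured 3710, 2278 and 2009 against 613, 775 and 1180 and was called by both.

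Of 23 genes of the integrated and endoplasmic reticulum stress responses, 19 were below 0 (median -0.59), 8 did not overlap, all lower (against 4.34% of all genes), and DESeq2 called 6 (against 1.39%) and the library term 9 (against 6.75%), all lower. Without LD2LR the term called 6, against 2.19% of all genes. PHGDH, the first enzyme of serine synthesis, measured 1879, 1180 and 2280 against 732, 410 and 536. Its log2 fold change was -1.66 with a standard error of 0.34 (DESeq2 adjusted p = 0.000465, library term 0.000562). PSAT1, the next enzyme of the pathway, measured 1385, 696 and 1307 against 512, 234 and 273, and SHMT2, which passes serine carbon to folate, 2026, 766 and 1720 against 541, 511 and 555. CHAC1, a glutathione-degrading enzyme downstream of ATF4, measured 526, 588 and 1133 against 359, 195 and 185. Each of these genes was called by DESeq2 and with the library term, with the treated rats below the vehicle rats. PDIA4, a disulfide isomerase of the endoplasmic reticulum, measured 9388, 10200 and 7473 against 6035, 5746 and 5738 and was called by both, and PDIA6, SDF2L1, CRELD2 and MANF of the same compartment were called with the term. The regulators of the responses did not move alike, with log2 fold changes of 0.23 for ATF4, -0.27 for DDIT3 and -0.20 for XBP1, none of them called. In the heat shock list of 17 genes, with a median of 0.13, 2 mitochondrial chaperones were called lower with the library term (against 6.75% of all genes), HSPD1 (4845, 5187 and 5788 against 3633, 2148 and 2469) and HSPE1, and 0 were called higher. Without LD2LR the term called HSPE1 alone.

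Several lists moved with the split in ribosomal protein reads. By mean log2 level per rat, LD2LR and LD6R lay above the other rats of both groups in, for example, the respiratory chain, ribosomal protein and histone lists. They lay below them in the lists of TGFβ ligands, receptors and SMADs, TGFβ targets, integrins and laminins, Notch, and Wnt and RANK genes. Nuclear genes of the respiratory chain had a mean log2 level of 11.76, 11.41 and 13.94 in vehicle rats and 12.65, 10.84 and 10.85 in treated rats, with LD2LR and LD6R above the others. The log2 fold change was below 0 in 46 of 46 genes (median -0.92), and the groups did not overlap in 2 genes, near the share of all genes (4.34%). DESeq2 called 1 gene lower (against 1.39%) and the library term 43 (against 6.75%). ATP5A1, a subunit of the ATP synthase, was the 1 called by DESeq2, at 20770, 17650 and 28550 against 16590, 9689 and 10520. Cytosolic ribosomal protein genes were below 0 in 71 of 72 (median -0.52), with 0 called by DESeq2 and 14 with the library term. The read share of this same list set the term, so that its calls with the term are no separate result. Its median was -0.24 without LD2LR and LD6R and -1.12 for LD6R against LD2LR. With LD2LR as treated the respiratory and ribosomal protein medians turned positive without the term (0.67 and 0.98) and were -0.75 and -0.34 with it. Without LD2LR the term called 22 respiratory and 0 ribosomal protein genes lower, against 2.19% of all genes. Among 15 histone genes the median was -0.63 and 2 were called lower with the term, H2AFZ and HIST1H1D, against 6.75% of all genes, and H2AFZ alone without LD2LR. The histone median was -0.16 without LD2LR and LD6R. The mean log2 level of the list was 6.94, 6.86 and 9.07 in vehicle rats and 8.02, 6.35 and 6.50 in treated rats.

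Most genes of the circadian clock were higher after TGFBRi, but the mean of the list did not separate the groups. Its mean log2 level was 8.77, 9.09 and 8.06 in vehicle rats and 8.83, 9.82 and 9.88 in treated rats. In each group the lowest rat was the one rich in ribosomal protein reads. Of 15 tested, 14 had a log2 fold change above 0 (median 0.92), 6 did not overlap and were higher, against 4.56% of all genes, and 1, CIART, did not overlap and was lower. DESeq2 called 3 higher, against 0.912% of all genes, and the library term 8, against 3.94%, and the same number without LD2LR. PER3, a repressor of the clock, measured 106.8, 146 and 116 in vehicle rats and 240, 604 and 641 after TGFBRi. Its log2 fold change was 1.89 with a standard error of 0.36 (DESeq2 adjusted p = 0.000175, library term 0.000411, and 0.000672 without LD2LR). PER2 measured 604, 738 and 706 against 1390, 2325 and 2271, and its vehicle rats lay close together. DBP, an output transcription factor of the clock, measured 141, 187 and 328 against 975, 667 and 563, and the related factor TEF 258, 256 and 71.4 against 281, 805 and 550. PER2 and DBP were called by DESeq2 and all these genes with the library term. ARNTL, the activator at the core of the clock, passed no test, at 282, 497 and 173 against 272, 387 and 448. The hour at which each rat was killed is not given in the sources used here. With LD2LR as treated the median of the list was 0.02 without the term and 0.80 with it.

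Immediate early genes were higher as well. Of 24, 20 were above 0 (median 0.66), 9 did not overlap, all higher (against 4.56% of all genes), and DESeq2 called 2 (against 0.912%) and the library term 7 (against 3.94%), all higher. BTG2, an antiproliferative gene of this class, measured 11880, 24200 and 22250 against 43800, 40820 and 39710, with the treated rats close together (log2 fold change 1.16, standard error 0.31, DESeq2 adjusted p = 0.0196, library term 0.00643). FOSB, a subunit of the transcription factor AP-1, measured 14360, 14100 and 10700 against 18640, 29370 and 40290 and was called by both. FOS, at 55090, 91270 and 98660 against 218000, 124800 and 149000, and EGR2, at 174, 363 and 121 against 386, 691 and 632, did not overlap and were called with the library term. Without LD2LR the term called 2 of the list, against 2.09% of all genes. Of 16 glucocorticoid-responsive genes, 4 did not overlap, all higher (against 4.56% of all genes), and the library term called ZBTB16 and TSC22D3 higher (against 3.94%), neither of them without LD2LR. Without LD2LR the term called 1 other member higher (against 2.09%), and DESeq2 called 1 gene of the list higher (against 0.912%). ZBTB16, a transcription factor induced by steroid hormones, measured 28.8, 22.2 and 7.93 against 52.9, 469 and 76, and 1 rat, LD9L, stood far above the others. FKBP5 and SGK1, further targets of that receptor, had log2 fold changes of -0.14 and -0.02.

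Of 29 interferon-stimulated genes, 25 were above 0 (median 0.39) and 10 did not overlap, all higher, against 4.56% of all genes. DESeq2 called 1 (against 0.912%) and the library term 3 (against 3.94%), or 1 without LD2LR (against 2.09%). USP18, the protease that removes ISG15 from proteins, was called by both (log2 fold change 1.95, standard error 0.45), at 64.4, 61.8 and 192 against 512, 232 and 383. The interferon regulatory factors IRF7, at 285, 367 and 400 against 670, 660 and 613, and IRF9, at 346, 364 and 284 against 578, 468 and 586, were called with the term but not once LD2LR was left out (adjusted p of 0.0708 and 0.233). Of 19 complement genes, 4 did not overlap, all higher (against 4.56% of all genes), and the library term called 6 higher (against 3.94%), also without LD2LR (against 2.09%). SERPING1, the inhibitor of the first complement component, measured 540, 1444 and 806 against 1756, 2842 and 2583, and C4BPA, which binds C4, measured 274, 321 and 246 against 480, 603 and 668. C4A and C4B were called with the term too, but share reads as near-identical copies. Among 25 genes of acute inflammation, SOCS3, a feedback inhibitor of cytokine receptors, was called higher with the term (adjusted p = 0.000526) and IL1A lower, at 176, 395 and 592 against 124, 38.5 and 158. These are 4% of the list each way, beside 3.94% of all genes higher and 6.75% lower, and IL1A was not called without LD2LR.

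Part of the target and feedback genes of the TGFβ pathway were higher 7 days after dosing, but the list did not separate the groups. Its mean log2 level was 9.23, 9.60 and 8.69 in vehicle rats and 9.01, 10.03 and 10.1 in treated rats. The lowest rat of each group was the one rich in ribosomal protein reads. Of 25 targets and feedback genes, 20 were above 0 (median 0.55), 4 did not overlap, all higher (against 4.56% of all genes), and the library term called 7 higher (against 3.94%) and DESeq2 0. Without LD2LR the term called 2 of them, against 2.09% of all genes. SMAD7, the inhibitory SMAD that TGFβ induces, measured 696, 498 and 230 in vehicle rats and 420, 1608 and 2033 after TGFBRi, with LD6R within the vehicle range (library term adjusted p = 0.00791, and 0.0395 without LD2LR). PMEPA1, another induced inhibitor of the pathway, measured 976, 1822 and 2224 against 3529, 2247 and 2310, with 2 treated rats just above the highest vehicle rat. LTBP2, a matrix protein of the latent TGFβ binding family, measured 342, 570 and 80.9 against 320, 832 and 927. Of 27 ligands, receptors and SMADs, TGFBR1, TGFBR2 and BMPR2 were called higher with the library term (11.1%, against 3.94% of all genes) and the ligand TGFB2 lower (3.7%, against 6.75%). TGFB2 measured 984, 1016 and 770 against 608, 553 and 518, with groups that did not overlap, and none of the 4 was called without LD2LR. For TGFBR1 the log2 fold change was 0.95 in all 6 rats, -0.23 without LD2LR and -1.05 with LD2LR as treated (0.97 with the library term), while without both LD2LR and LD6R it was 0.94.

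Other growth factor pathways differed in single members. Among 13 genes of the EGF family, NRG2, a neuregulin ligand, was higher, at 11.4, 25.6 and 25.4 against 68.4, 140 and 92.7 (DESeq2 adjusted p = 0.00103, library term 0.00561). BTC, betacellulin, was lower, at 53.8, 129 and 121 against 36.1, 25 and 23.7 (DESeq2 adjusted p = 0.0106, library term 0.0151, and 0.0685 without LD2LR). The receptors ERBB3 and ERBB4 were called higher with the term only, which makes 3 of the 13 higher (against 3.94% of all genes) and 1 lower (against 6.75%). Of 17 Notch genes, LFNG, which modifies Notch receptors, was called higher by DESeq2 and the library term, at 24.2, 31.3 and 47.6 against 56.8, 101.9 and 70.4, and the ligand JAG1 with the term (2 of 17, against 3.94%), of which LFNG alone was called without LD2LR. The term called 1 Notch gene lower (5.88%, near the 6.75% of all genes), and 0 without LD2LR. Of 25 Wnt and RANK genes none was called, and 2 did not overlap and were higher and 1 lower, near the shares of all genes (4.56% and 4.34%). Of 17 integrins and laminins, ITGB4, LAMB2 and LAMB3 were called higher with the term (17.6%, against 3.94% of all genes), and ITGB4, the beta subunit of the hemidesmosome integrin, measured 1253, 1522 and 320 against 701, 6595 and 5310. In this list 0 genes were free of overlap and DESeq2 called 0. LD2LR and LD6R had its lowest mean log2 levels (7.14 and 7.62).

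Of 16 luminal progenitor and alveolar genes none was called and none was free of overlap, with log2 fold changes of -0.63 for ELF5, 0.92 for KIT and 0.13 for ALDH1A3. Of 17 genes listed for hormone-sensing cells, 5 were called higher with the library term (29.4%, against 3.94% of all genes). They were PRLR, FOXA1, TBX3, S100A6 and PTHLH, and 4 of those were called without LD2LR (against 2.09%). PTHLH, counted both times, did not mark the luminal fraction in these rats. Among vehicle rats of day 7 its luminal mean was 16.6, far under its basal mean of 483. It was also among the genes named first for their rise, so that its call is no separate result. PRLR, the prolactin receptor, measured 574, 1029 and 1398 against 1837, 1614 and 1425. ESR1, the estrogen receptor, measured 177, 137 and 90.4 against 119, 392 and 322, and PGR, the progesterone receptor, 407, 942 and 257 against 275, 701 and 520. Both receptors overlapped between the groups and passed no test. Among the stress enzymes of the NRF2 list of 24 genes, 3 were called in each direction with the term (12.5% each way, against 3.94% of all genes higher and 6.75% lower), and the list median was 0.02. The matrix protease list had a median of 0.01, with 1 gene called in each direction (4.17%, beside 3.94% of all genes higher and 6.75% lower).

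Markers of other cell types were checked for each rat. Of 10 fibroblast markers 8 were above 0 (median 0.64), none was called, and their summed values were 11120, 7497 and 5896 in vehicle rats and 3270, 40960 and 34000 in treated rats. LD9L and LD9R thus stood above the vehicle rats and LD6R below them. COL1A1, the main fibrillar collagen of stroma, was at 1139 to 4983 in vehicle and 479 to 18880 in treated rats. Collagens and other matrix genes moved with these rats, with a median of 0.52 over 26 genes, 1.03 without LD2LR and LD6R and -0.62 between those rats, and the part of stromal cells in these values was not tested. Macrophage markers (8 of 10 above 0, summed values 90.9 to 392 in vehicle and 212 to 348 in treated rats), endothelial markers (9 of 11 above 0, 173 to 411 against 339 to 753) and T and B cell markers (9 of 10 above 0, 142 to 176 against 132 to 240) were low throughout. Of these lists 0 genes were called with the library term, and the summed values overlapped between the groups. In LD2LR the macrophage marker CSF1R was at 0, although the summed macrophage value of that rat (392) was the highest of the 6 rats. Schwann cell and muscle markers were higher in 8 of 10, with S100B called with the term (10%, against 3.94% of all genes). Their summed values, 1601 to 1900 against 2130 to 2442, did not overlap. Their mean log2 levels did, at 4.99, 5.20 and 5.10 in vehicle rats and 6.3, 5.94 and 5.12 in treated rats. Basal myoepithelial markers were below 0 in 8 of 13, with KRT14 lower with the term (857, 979 and 2394 against 931, 289 and 525). That is 7.69% of the list, near the 6.75% of all genes, and 0 were called without LD2LR. The neutrophil, adipocyte, mast cell, leukocyte and erythrocyte lists had medians of -0.22, 0.37, 0.58, 0.39 and 0.07 with 0 genes called. The part of such cells in the results above was not tested.

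**Figure D5:**
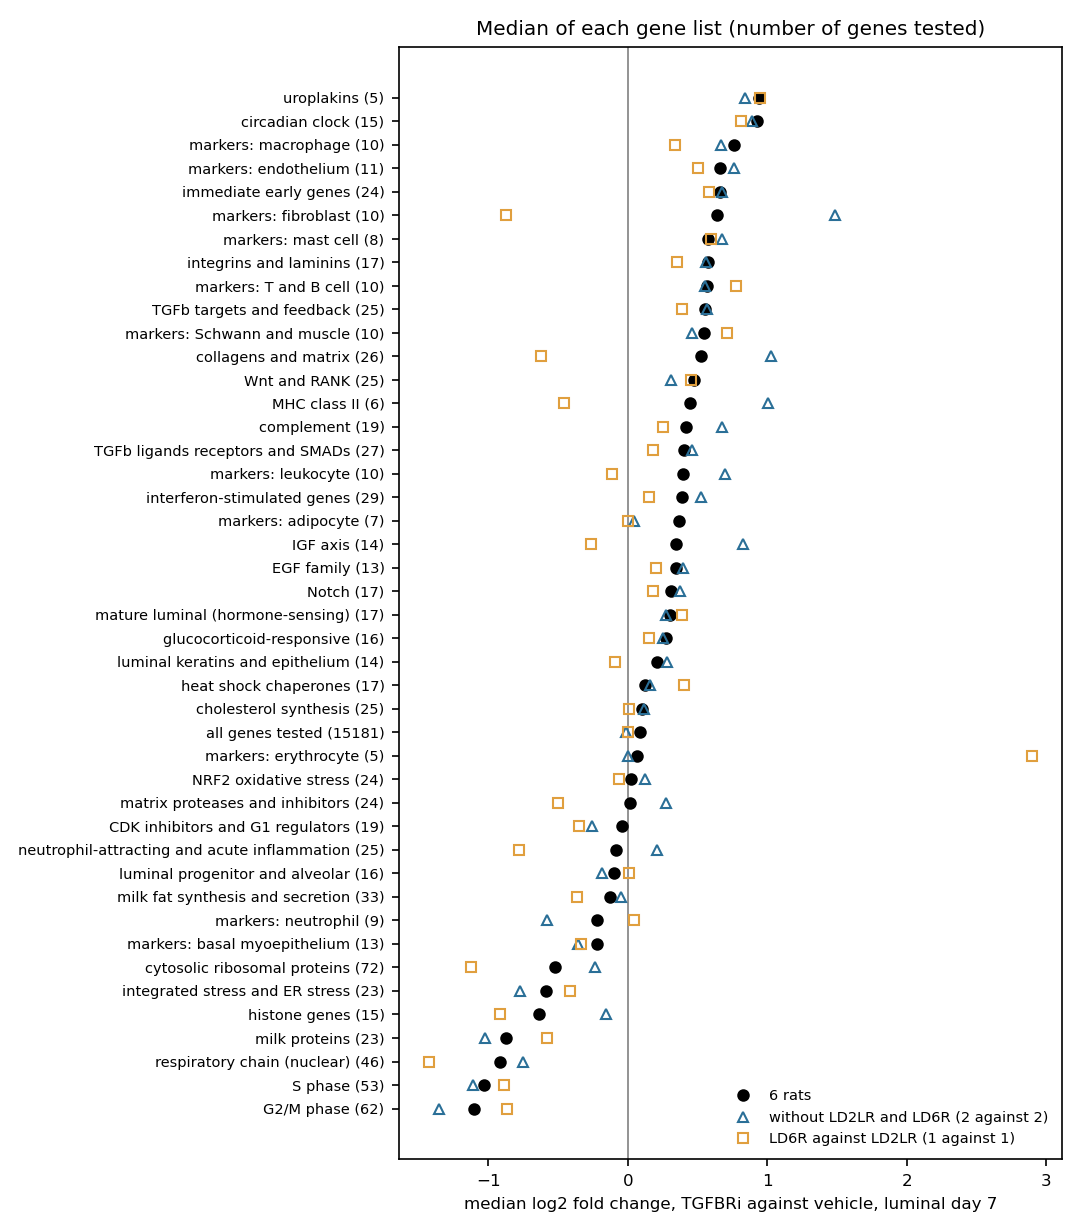
Median log2 fold change of TGFBRi against vehicle (x axis) for each gene list with at least 5 genes tested and for all genes, with filled circles for the 6 rats, triangles without LD2LR and LD6R, and squares for LD6R against LD2LR alone. The S phase (-1.03, -1.11 and -0.89) and G2/M lists (-1.10, -1.36 and -0.86) lie below 0 by each of the 3 measures, and the fibroblast and matrix lists change sign between them.

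At day 0 other rats were used, and the effect there is given beside that at day 7. The median log2 fold change of the S phase list was -0.70 at day 0, -1.03 at day 7 and 0.30 at day 14, and that of the G2/M list -0.94, -1.10 and -0.12. Both groups had higher mean levels of these lists at day 7 than at the other days (not tested), with a vehicle mean of 9.24 for S phase against 7.91 at day 0 and 7.25 at day 14. The milk protein medians were 0.23, -0.87 and -0.96, those of the circadian list 0.30, 0.92 and 0.10, and those of the interferon list -0.33, 0.39 and 0.30. Tested gene by gene, the effect at day 7 differed from that at day 0 in 97 genes with the library term (0.639%). Without the term limma called 0 genes, with 1118 (7.36%) under 0.05 before adjustment, edgeR called 0 and DESeq2 64. With the term the count was 27 without LD2L, 209 without LD5R, 39 without LD2LR, 39 without LD9L and 30 without LD9R. LTBP2 had the lowest adjusted p of these 97 (3.88e-05). Its values were 1796 to 2580 in vehicle and 127 to 311 in TGFBRi-treated rats at day 0, a log2 fold change of -3.62, against 1.32 at day 7. PMEPA1, at 1491 to 1797 against 436 to 739 at day 0, was also lower then and higher at day 7 (adjusted p = 0.00349 for the difference). LEFTY1 had a log2 fold change of -1.69 at day 0 and 3.25 at day 7 (adjusted p = 0.036). DBP, PER3 and TEF of the circadian list, IL1R2 and SCD differed between the days as well (adjusted p of 0.00278, 0.0193, 0.0216, 0.0183 and 0.00854). DBP was at 1092 to 1563 in vehicle and 497 to 790 in treated rats at day 0. No gene of the S phase or G2/M list was among the 97.

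Against day 14 the effect at day 7 differed in 27 genes with the library term (0.178%). Without the term limma called 0 genes, with 1005 (6.62%) under 0.05 before adjustment, edgeR 0 and DESeq2 48. With the term the count was 3 without LD2L, 180 without LD5R, 3 without LD2LR, and 0 without LD6R or LD9L. KCNH1 was called, with a difference in log2 fold change of 4.28 in the fit with the term (adjusted p = 0.0245). At day 14 the fits with and without the term differ in fold change, since LD20L is rich in ribosomal protein reads and no vehicle rat of that day is, and all folds given here for day 14 are without the term. The day 14 values of KCNH1 were 338 to 1011 in vehicle and 65 to 1168 in treated rats. LTBP2 (adjusted p = 0.0245), the replication gene USP1, HSPE1, ITGB4 and C4BPA were the list members called. SFRP4 was at 263 to 280 in treated rats and 39.6 to 102.6 in vehicle rats at day 14, a difference that limma did not call (adjusted p = 0.261), and the effect was not called as different between the days (adjusted p = 0.685).

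In the basal cells of the same 6 rats, the list medians at day 7 were -0.52 for S phase, -0.76 for G2/M, -0.07 for milk proteins, 0.36 for the circadian clock and 0.61 for interferon-stimulated genes. Both fractions of a rat deviated from their group means together, so that rat was added as a block. Without the block, the treatment effect differed between luminal and basal cells in 0 of 15071 genes by limma, where 359 (2.38%) were under 0.05 before adjustment, and edgeR also called 0. With the block it differed in 55 genes (0.365%). With the block the count was 7 without LD2L, 124 without LD5R, 6 without LD6R, 12 without LD9L and 5 without LD9R. Among the named genes, KCNH1 (adjusted p = 0.0034), LOC259244 (0.00833), SLC39A8 (0.0221), PTHLH (0.032) and SLC7A7 (0.0361) were called. PTHLH was at 371 to 550 against 569 to 873 in basal cells, a log2 fold change of 0.51 against 3.2. TGFB2, at 99.8 to 195 against 242 to 311, was higher in basal and lower in luminal cells after TGFBRi (adjusted p = 0.0401), and so was BTC (adjusted p = 0.0464), although its basal values lay at or under 20.7. SFRP4 had a log2 fold change of 2.96 in both fractions.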

How the data were processed

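RNA was measured by sequencing of full-length amplified cDNA (SMARTer v4) from sorted cells, 1 rat per library. The authors aligned reads to rn6 with STAR 2.5.1b, counted them per gene without strand with HTSeq, removed genes with few counts and scaled basal and luminal libraries together with DESeq2 1.30.1. The deposited signal is thus reads divided by a size factor. Whole reads were recovered from it for 483768 of 483768 values above 0 (100%, tolerance 0.001 of a read), and edgeR 4.0.16 and DESeq2 1.42.0 were run on those reads as alternatives.

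The main test was limma 3.58.1 in R 4.3.3 on log2 of the deposited value plus 1, with Benjamini-Hochberg adjustment and a threshold of 0.05, fitted on all 18 luminal libraries of days 0, 7 and 14, so that groups share 1 estimate of the spread. Of 15826 genes in the files, 15181 passed a minimum sum of 10. Fold changes are on the log2(value + 1) scale and understate changes of low genes. Alternatives were another scaling (TMM), pseudocounts of 0.5 and 5, a minimum mean of 10, day 7 rats alone, thinned reads and leaving out each rat. A term for the 3 libraries with over 5% of reads on ribosomal protein genes, fits without those libraries and fits with LD2LR as treated were chosen after seeing the data. For luminal against basal cells, samples of 1 rat carry the same animal name in the labels, and their deviations from the group means correlated at 0.688 to 0.896 over 9345 genes. The members and gene lists were chosen with earlier results of these data known. The genes named first were the 12 with the largest log2 fold change in each direction with at least 50 reads on average, an unadjusted p below 0.05 and groups that did not overlap. The fits were run on simulated reads, with the same spread in every gene and the same shift in each rich library. That simulation checks the code and not whether the term suits these data. Promoters came from RefSeq in GRCr8, matched by symbol, and no coordinates were moved between builds. A few of these genes and some members of the lists are not reported here, while counts and medians cover whole lists.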

Additional observations from a re-analysis of the deposited data

Results flagged for a closer look

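The effect of TGFBRi was compared between luminal cells of different days and between fractions of the same rats, and genes whose effects differed by a test of that difference are counted here. With the library term, 97 genes differed between day 7 and day 0 and 27 between day 7 and day 14. With rat as a block, 55 genes differed between luminal and basal cells at day 7. Groups of 3 rats were not tested for single rats far from the rest.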

How the results depend on the processing

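Between TGFBRi and vehicle in luminal cells at day 7, limma called 0 genes and DESeq2 250, 56 with day 7 rats only and 186 without LD2LR and LD6R. With the library term the count was 1623, 1759 by edgeR, 2385 by DESeq2, 1708 with TMM scaling, 1202 with day 7 rats only and 6 with LD2LR as treated, and it was 456 without LD2LR, LD6R and LD20L. Leaving out 1 rat gave 0 to 11 genes by limma (11 without LD5R) and 623 to 1668 with the term (650 without LD2LR, 642 without LD6R, 980 without LD9L and 1110 without LD9R). For day 7 against day 0, DESeq2 called 64 genes and the term 97 (92 by edgeR, 436 by DESeq2), with 1 gene without LD2LR and LD6R and 31 without LD20L as well. Leaving out 1 rat gave 0 to 12 without and 27 to 209 with the term (39 without LD2LR, 65 without LD6R, 39 without LD9L and 30 without LD9R). For day 7 against day 14, DESeq2 called 48 genes and the term 27 (82 by edgeR, 708 by DESeq2), and 0 to 180 with 1 rat left out (3 without LD2LR and 25 without LD9R). For luminal against basal cells, the pairing of both fractions by rat as a block raised the count from 0 to 55, and gave 5 to 124 with 1 rat left out (54 without LD2LR).

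With LD2LR as treated and no library term the S phase median was -0.61 and the circadian median 0.018, and the log2 fold change of TGFBR1 turned to -1.05. With 1 rat left out that of TGFBR1 ran from -0.23 (without LD2LR) to 2.11 (without LD6R). The G2/M median was -1.43 by DESeq2 and -1.44 by edgeR without LD2LR and LD6R. Of 174 values of the main list medians, 170 moved by less than the spread between rats and 4 by more, and of 1102 for the other lists 1044 and 58. Of 672 values of the 24 genes chosen for their difference, 179 passed the threshold that limma did not, and their direction with a rat left out was fixed by that choice. The cause of these changes was not tested. Each group held 3 rats, 1 of them with labels in conflict, which limits the precision of every value given.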
